A study of Mus musculus with 16 samples.

Results

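The integrated stress response genes described here are 10 genes of the eIF2-ATF4 pathway: Atf4, Atf5, Ddit3, Atf3, Trib3, Chac1, Asns, Sesn2, Ppp1r15a and Ppp1r15b. They were chosen by name, as the 10 gene names on the array that equal this list, out of 30214 gene names in all. The cells were AML12, a non-tumourigenic line of mouse hepatocytes, and all samples shared the doxycycline and the insulin treatment. There were 4 groups with 4 arrays each. The control groups carried a doxycycline-inducible scramble shRNA and the depleted groups a doxycycline-inducible shRNA against eIF6, and each was measured in polysomal and in subpolysomal RNA from a sucrose gradient. eIF6 binds the large ribosomal subunit and keeps it from joining the small one, and cells need it to raise translation in response to insulin. Insulin was given for 1 h at 100 nM in the sample descriptions and the methods, while the treatment protocol in the labels has 100 mM. Groups without insulin, without doxycycline or with a stress agent are not analysed here, and a single shRNA stood for the depletion.

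In the integrated stress response, kinases that sense amino acid shortage, unfolded proteins, haem shortage or double-stranded RNA phosphorylate eIF2. General initiation then falls, while the mRNAs of some regulators are translated more. Atf4 is the best known case: short upstream open reading frames (uORFs) in its leader hold ribosomes back in unstressed cells and let them reach the coding sequence under stress. Atf5, Ddit3, Ppp1r15a and Ppp1r15b also carry uORFs. ATF4 then activates genes for amino acid supply, and its targets Ddit3, Trib3 and Chac1 are linked to cell death. Ppp1r15a and Ppp1r15b close the loop, since they encode the subunits that bring protein phosphatase 1 to eIF2. In the liver the pathway responds to diet and to stress of the endoplasmic reticulum. An mRNA held back by its uORF carries few ribosomes and sediments among the light fractions, so its ratio of polysomal to subpolysomal signal is the quantity of interest here.

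The values are log2 signals of one-colour Agilent arrays, quantile normalized over the 16 arrays, so a difference of 1 is a factor of 2 in signal. Signals of different genes come from different probes and are not compared. All 10 genes were well above background on all 16 arrays. The shRNA target Eif6 had a polysomal log2 signal of 12.95 ± 0.011 in scramble cells and 11.89 ± 0.084 in eIF6 shRNA cells (SD, n = 4 each). Its subpolysomal signal was 11.60 ± 0.065 and 11.61 ± 0.14. Of 8 hepatocyte markers, 6 were well above background on all 16 arrays, among them Hnf4a and Ttr, while Alb was so on 7 arrays and Apoa1 on 3. All 5 mesenchymal markers (Col1a1, Col1a2, Pdgfrb, Thy1, Vim) were well above background on all 16 arrays, and 4 of them were called lower with eIF6 shRNA in each fraction. Their summed log2 signal ranged from 16.74 to 17.60 on scramble and from 14.25 to 15.09 on eIF6 shRNA polysomal arrays. In subpolysomal RNA it ranged from 16.76 to 16.88 and from 15.55 to 15.97. Of 4 macrophage markers, 2 (Cd68, Csf1r) were well above background on all 16 arrays, though Csf1r not with every one of its probes. The summed signal of the 4 was 8.20 to 8.42 on scramble and 7.62 to 7.83 on eIF6 shRNA polysomal arrays. In subpolysomal RNA it was 9.38 to 9.64 and 9.03 to 9.34. Of these 4 only Csf1r was called, lower in each fraction (-1.67 on polysomes and -1.17 in subpolysomal RNA). On polysomes Cd68 and Emr1 had changes of 0.12 and 0.06, and Ptprc had -0.68. The summed signal of the hepatocyte markers overlapped between the shRNAs in both fractions (18.37 to 18.97 on scramble polysomal arrays against 18.51 on the lowest eIF6 shRNA one, and 18.23 to 18.36 and 18.29 to 18.41 in subpolysomal RNA). Most of that sum is Krt18, with group means of 17.87 to 18.32, so it says little about the others. In each fraction 1 of the 8 was called higher with eIF6 shRNA and 0 lower. Ttr rose from 8.54 ± 0.16 to 9.70 ± 0.16 on polysomes (log2 change 1.15, adjusted p = 5.54e-07). Its subpolysomal mean went from 7.32 to 8.65. Fewer cells of a kind and less RNA per cell cannot be told apart in such samples, and the part of these markers in the results below was not tested. The polysomal arrays numbered 4 differed from the rest in the genes described here. The scramble array numbered 4 had the lowest polysomal value of its group for 8 of the 10 genes, and so had the eIF6 shRNA array numbered 4. Over all genes the scramble array had a mean correlation of 0.9894 with the other arrays of its group, the lowest of the 16 arrays, and the eIF6 shRNA array one of 0.990. The SD of deviations from the group mean was 0.357 on the scramble array, the largest of the 16, and 0.339 on the eIF6 shRNA array. Other arrays came close over all genes. The eIF6 shRNA subpolysomal array numbered 4 had a mean correlation of 0.9895 and an SD of 0.347. The scramble subpolysomal array numbered 1 had an SD of 0.355. Results that change without both polysomal arrays numbered 4 are given both ways. These arrays were picked from the values of the genes described here, so a smaller p without them adds no weight to a result.

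Of the 10 genes, 9 were each read by a single probe of 60 bases, and Atf4 was read by 2. As these 2 Atf4 probes gave different positions on the gradient, their last 30 bases are shown, with the polyadenylation signal AATAAA in capitals. The first probe starts at base 504 of the transcript and lies at chr15:80086639-80086698 (mm9, plus strand), the second starts at base 1655 and lies at chr15:80087902-80087961.
Atf4 probe starting at base 504: taacggacaaagataccttcgagttaagca
Atf4 probe starting at base 1655: tgctgtgtttgctgtAATAAAttattttgt
The second probe holds this signal and the first does not. AATAAA was found in 4 of the 11 probes, those of Atf5, Trib3 and Asns being the others. The probes had GC contents of 35% to 55%.

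ATF4 acts on its targets through the C/EBP-ATF response element, searched here as TGATGNAA on both strands of the RefSeq promoter windows of build GRCm38.p6, which run from 250 bases before to 50 bases after a start site. The windows covered 9 of the 10 genes (all but Ppp1r15b). The element was found in 4 of these 9 genes, counting any window of a gene, and in 3.97% of the 32851 single windows of all genes. Genes and single windows are unlike units, here and for the second element below, so these shares are not compared. The matches are printed because those 4 genes are targets of 1 factor and yet differed in their changes below. Each is given 5′ to 3′ on the strand of its gene, with the element in capitals, which reads TGATGNAA or its reverse complement. The windows lie at chr1:191183425-191183454 for Atf3, chr2:152344028-152344057 for Trib3, chr2:119351038-119351067 for Chac1 and chr6:7693214-7693243 for Asns, with the Chac1 gene on the plus and the others on the minus strand.
Atf3: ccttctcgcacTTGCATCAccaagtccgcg
Trib3: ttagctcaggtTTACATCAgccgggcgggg
Chac1: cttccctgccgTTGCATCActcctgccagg
Asns: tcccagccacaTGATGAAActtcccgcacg
The cyclic AMP response element TGACGTCA, which cannot coincide with a match of TGATGNAA but may overlap one, was found in 1.79% of all windows and in 1 of the 9 genes, Ppp1r15a, 12 bases before its start site on the minus strand (chr7:45526262-45526291).
Ppp1r15a: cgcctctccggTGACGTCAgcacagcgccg
A match is a description of these letters and no evidence of binding.

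The first question was where the mRNAs lay on the gradient of control cells. Ddit3, Atf4, Atf5, Ppp1r15a and Sesn2 lay on the light side, and Atf3, Trib3 and Ppp1r15b on the heavy side. Of the genes named above for uORFs, all but Ppp1r15b were thus on the light side. Between scramble polysomal and subpolysomal arrays, 5 of the 10 genes were called lower in polysomal RNA at an adjusted p under 0.05, beside 28.4% of all 19367 genes tested, and 3 were called higher, beside 31.7%. Over 10 genes these counts are read as a description, and the order of the genes holds for the probes used. In scramble cells Atf4 had a log2 difference of -1.55 at its probe starting at base 504 and -0.25 at base 1655. The latter is above the -0.38 of Sesn2. Ddit3 was read only by a probe starting at base 288, nearer the start of its transcript than any other probe of these genes. The part of probe position in the order was not tested.

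Ddit3 encodes CHOP, the transcription factor that promotes death under lasting stress. Its log2 signal in scramble cells was 11.46, 11.30, 11.34 and 11.40 on the subpolysomal and 9.80, 9.83, 9.90 and 9.50 on the polysomal arrays. The fractions did not overlap. The polysomal signal was lower by a log2 difference of -1.62 (SE 0.14, 95% interval -1.92 to -1.32, adjusted p = 1.59e-07), and 5.02% of all genes had a lower ratio. In eIF6 shRNA cells the difference was -1.77 (SE 0.14, adjusted p = 7.94e-08), and 4.03% of genes had a lower ratio.

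Atf4, the transcription factor at the centre of the pathway, came next with its probes averaged. Its signal in scramble cells was 15.44, 15.35, 15.51 and 15.78 on the subpolysomal and 14.64, 14.79, 14.88 and 14.19 on the polysomal arrays. All polysomal values lay below all subpolysomal ones. The log2 difference was -0.90 (SE 0.15, adjusted p = 0.000108), and 14.3% of genes had a lower ratio. Atf5, a relative of Atf4 with the same kind of leader, had a difference of -0.56 (SE 0.13, adjusted p = 0.00193) and a rank of 23.8%. Ppp1r15a, which encodes the stress-induced GADD34 subunit, had -0.52 (SE 0.14, adjusted p = 0.0053) and a rank of 25.2%. Sesn2, a sestrin that restrains mTORC1 when leucine is short, had -0.38 (SE 0.098, adjusted p = 0.00394) and a rank of 30.6%.

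On the heavy side stood Atf3, a transcription factor induced by ATF4, with a log2 difference of 0.91 (SE 0.12, adjusted p = 1.56e-05) and 86.3% of genes below it. Trib3, a pseudokinase that binds AKT, had 0.81 (SE 0.085, adjusted p = 1.16e-06) and a rank of 83.2%. Ppp1r15b, which encodes the constitutive CReP subunit, had 0.76 (SE 0.12, adjusted p = 7.09e-05) and a rank of 81.6%. Over the 4 arrays, Ppp1r15b had 7.65, 7.58, 7.61 and 7.82 in subpolysomal and 8.55, 8.42, 8.66 and 8.09 in polysomal RNA, without overlap. Ppp1r15a had 13.44, 13.25, 13.44 and 13.55 in subpolysomal and 12.90, 13.01, 13.17 and 12.52 in polysomal RNA, also without overlap. The paralogues Ppp1r15a and Ppp1r15b thus lay on opposite sides of the median of all genes. Asns, the enzyme that makes asparagine, had 0.45 (SE 0.25, adjusted p = 0.143). Chac1, which degrades glutathione, had 0.06 (SE 0.091, adjusted p = 0.592).

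Within eIF6 shRNA cells, 4 genes of the list were called lower in polysomal than in subpolysomal RNA, beside 28.7% of all genes. Another 3 were called higher, beside 32.1%. Lower were Ddit3, Sesn2 (-0.57), Ppp1r15a (-0.43) and Atf4 (-0.37, adjusted p = 0.0417). The Atf4 call was lost when any 1 of the 4 eIF6 shRNA replicates was left out (adjusted p = 0.0552 to 0.168), without scramble replicate 1 (adjusted p = 0.0608) and without a filter on dim probes (adjusted p = 0.0666), and with the brightest probe the sign turned (0.30), over alternatives 0.000105 to 0.274. The Ppp1r15a call was lost without eIF6 shRNA replicate 2 (adjusted p = 0.058) or 4 (-0.30, adjusted p = 0.100) and with scaling to the 75th percentile (-0.24, adjusted p = 0.182), over alternatives 2.08e-07 to 0.182. The lowest value of both ranges belongs to the opposite sign, with each fraction scaled on its own (0.80 for Atf4, 1.38 for Ppp1r15a). Spike-in scaling turned both signs too (0.63 and 1.30). Sesn2 turned with these scalings as well (1.22 and 1.14). Ddit3 stayed below 0 with them but was not called (-0.02 and -0.11). Higher were Atf3 (1.03), Ppp1r15b (1.00) and Trib3 (0.64). Atf5 was not called, with a log2 difference of 0.23 (SE 0.13, adjusted p = 0.147) and a rank of 59.6%. Its arrays overlapped between the fractions in these cells and not in scramble cells. It was called higher without both polysomal arrays numbered 4 (0.33, adjusted p = 0.0049), without eIF6 shRNA replicate 4 (0.35, adjusted p = 0.0482), with normexp background correction (0.32, adjusted p = 0.0454) and with the fractions scaled apart (1.01). With scaling to the 75th percentile it was called lower (-0.75, adjusted p = 0.000636), and the adjusted p over alternatives was 6.00e-07 to 0.544.

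The sign of these differences depends on the scaling, because quantile normalization sets both fractions to the same distribution. With scaling to 8 spike-in probes the median of all genes was 1.52 in scramble and 1.31 in eIF6 shRNA cells, and Ddit3, Atf4, Atf5, Ppp1r15a and Sesn2 in scramble cells turned positive (0.23, 0.41, 0.51, 1.43 and 1.51). Scaling to the 75th percentile ended the scramble calls of Ppp1r15a (-0.29, adjusted p = 0.112) and Sesn2 (-0.21, adjusted p = 0.0875). Ranks moved less for Ddit3 and Atf3: over the 22 alternative settings the share of genes below Ddit3 in scramble cells was 1.97% to 10.4% and that below Atf3 was 83.3% to 94.3%. For Atf5 it was 12.4% to 29.4%, for Atf4 6.36% to 37.0% and for Ppp1r15a 15.1% to 46.4%. For Sesn2 it was 20.4% to 50.6%, so its place on the light side of the median did not hold in every setting.

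**Figure D1:**
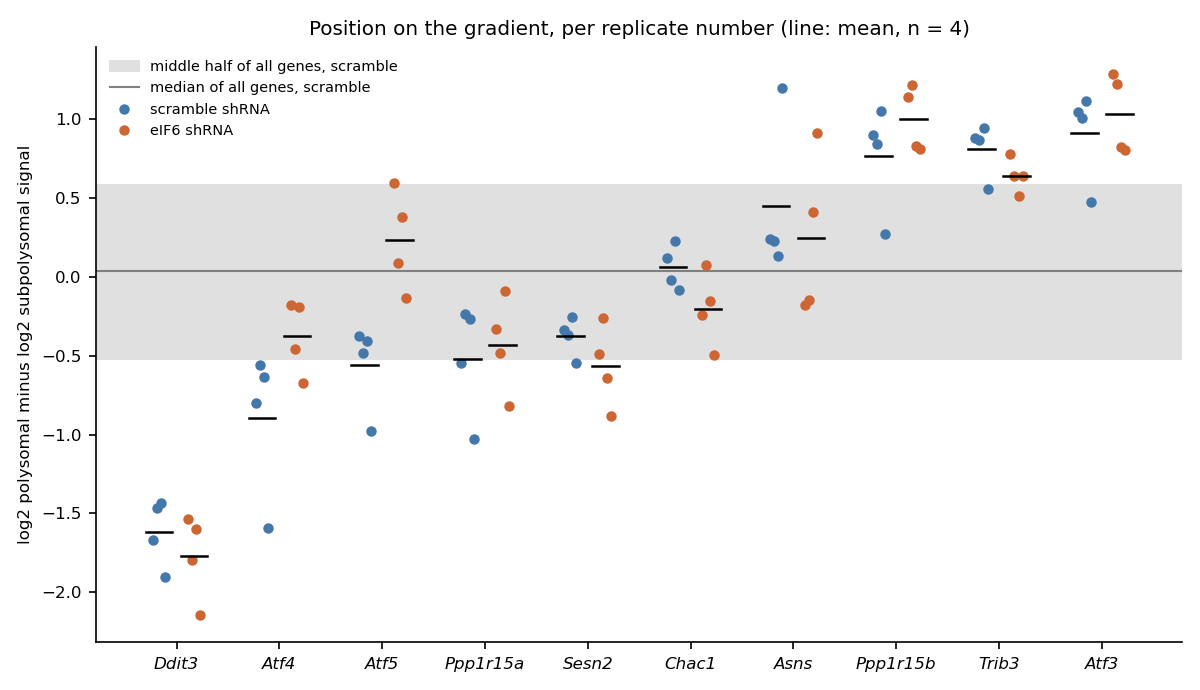
The log2 difference between the polysomal and subpolysomal array of the same replicate number (vertical axis) for each gene, ordered by its mean in scramble cells, with scramble in blue, eIF6 shRNA in orange and lines at the means of 4. The grey band runs from the lower to the upper quartile of all genes in scramble cells (-0.52 to 0.58). Ddit3 lies below the band in both cell lines, with means of -1.62 and -1.77, and Atf5 moves from -0.56 to 0.23.

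The Atf4 probes placed it differently on the gradient. At the probe starting at base 504, the signal in scramble cells was 13.43, 13.09, 13.32 and 14.07 on the subpolysomal and 11.89, 12.05, 12.40 and 11.38 on the polysomal arrays. The log2 difference was -1.55 (SE 0.24, adjusted p = 6.66e-05). At the probe starting at base 1655, the signal was 17.46, 17.61, 17.70 and 17.50 on the subpolysomal and 17.40, 17.53, 17.36 and 17.01 on the polysomal arrays. The groups overlapped, and the difference was -0.25 (SE 0.11, adjusted p = 0.07). The probes gave opposite calls in eIF6 shRNA cells, -1.05 (SE 0.24, adjusted p = 0.00176) at base 504 and 0.30 (SE 0.11, adjusted p = 0.0301) at base 1655. The position of Atf4 on the gradient is therefore a mean over probes that disagree. On polysomes the change between the shRNAs was 0.02 (SE 0.24) at base 504 and -0.05 (SE 0.11) at base 1655. In subpolysomal RNA both probes were lower with eIF6 shRNA, with changes of -0.48 (SE 0.24, adjusted p = 0.178) and -0.60 (SE 0.11, adjusted p = 0.00119).

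**Figure D2:**
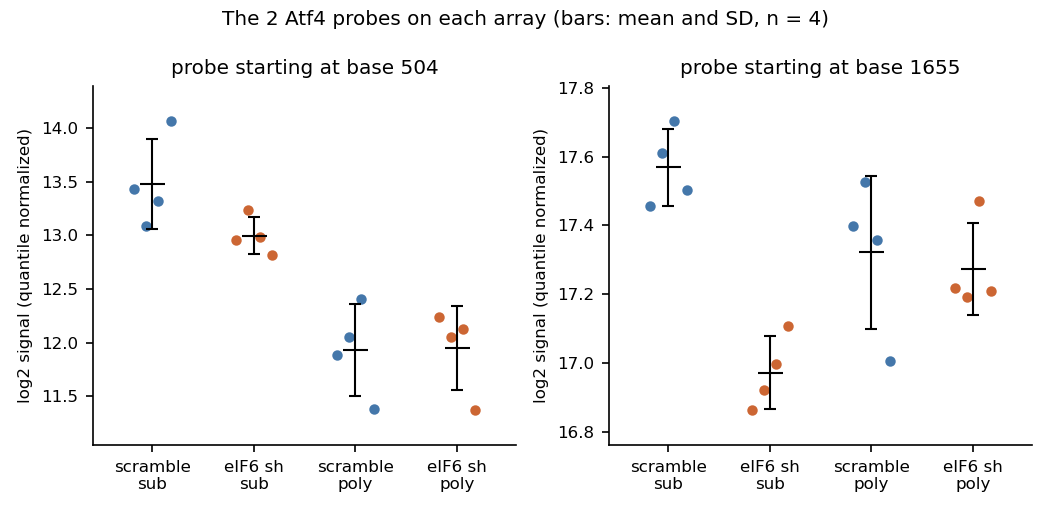
Quantile normalized log2 signal (vertical axes, different ranges) of the Atf4 probes starting at base 504 (left) and at base 1655 (right) on each array, with mean and SD of 4 arrays per group; sub is subpolysomal and poly polysomal RNA. The polysomal arrays lie below the subpolysomal ones of both cell lines at the first probe, and at the second probe the eIF6 shRNA polysomal arrays (17.19 to 17.47) lie above the subpolysomal ones (16.86 to 17.11).

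The second question was how the mRNAs differed between eIF6 shRNA and scramble cells in each fraction. Atf3 was higher with eIF6 shRNA in both fractions, Ddit3 was higher and Atf4 and Atf5 lower in the subpolysomal fraction, and Trib3 was lower on polysomes. In the polysomal comparison 1 gene was called higher, beside 11.1% of all genes, and 1 lower, beside 10.7%. In the subpolysomal comparison 2 were called higher, beside 11.8%, and 2 lower, beside 12.3%. The median over the 10 genes was 0.01 in the polysomal and -0.06 in the subpolysomal comparison, against 0.02 over all genes in each. The list as a whole therefore did not move 1 way.

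**Figure D3:**
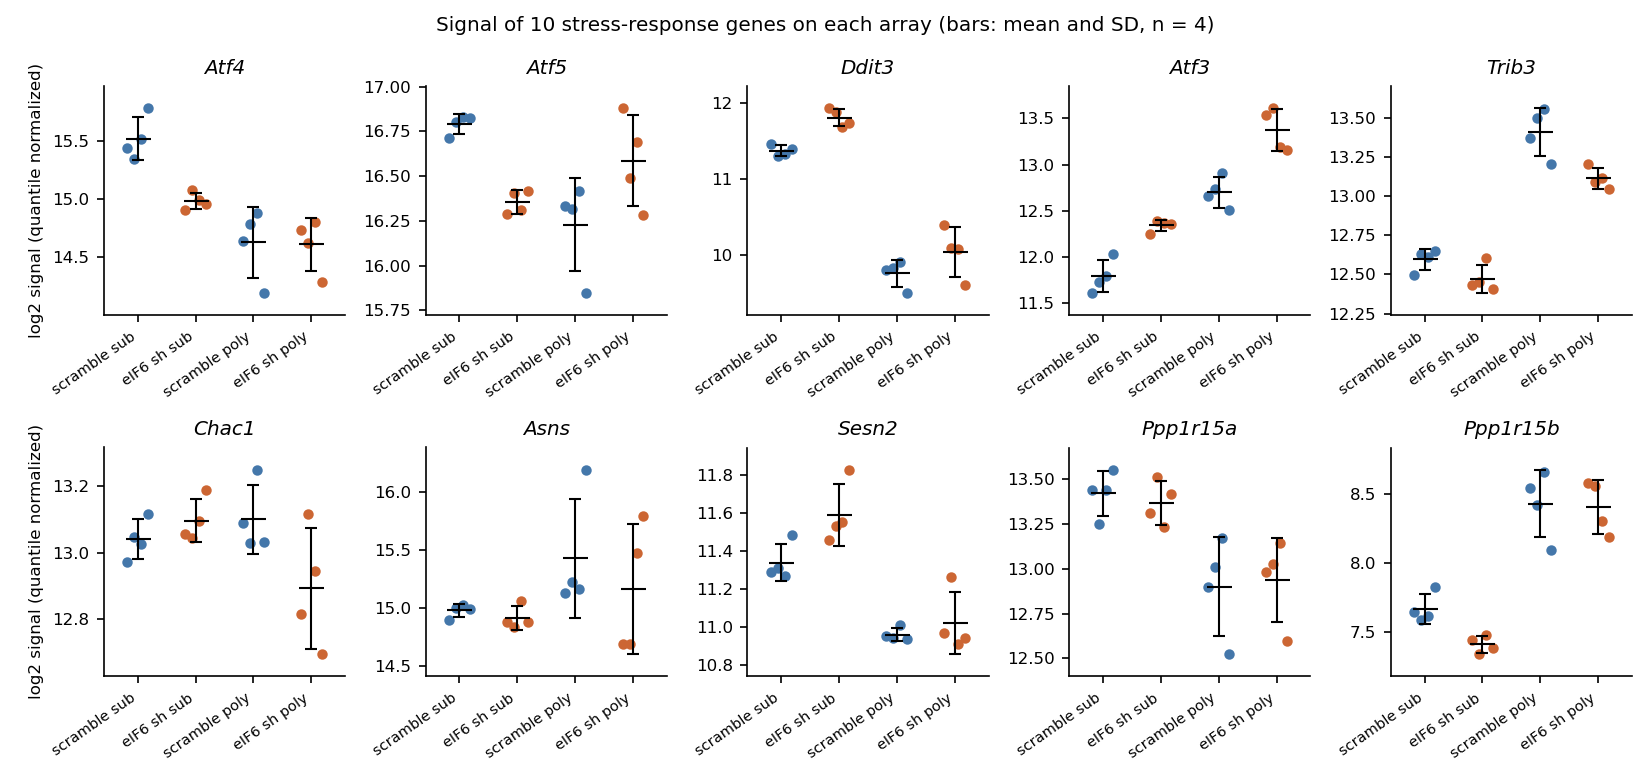
Quantile normalized log2 signal (vertical axes, a range for each gene) of the 10 genes on each of the 16 arrays, with mean and SD of 4 arrays per group; sub is subpolysomal and poly polysomal RNA, scramble in blue and eIF6 shRNA in orange. The Atf3 groups do not overlap in either fraction, and the scramble polysomal array numbered 4 is highest for Asns at 16.19.

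Atf3 had a polysomal log2 signal of 12.66, 12.73, 12.91 and 12.51 in scramble and of 13.53, 13.61, 13.19 and 13.16 in eIF6 shRNA cells. On subpolysomal arrays it had 11.61, 11.73, 11.80 and 12.03 in scramble and 12.25, 12.39, 12.37 and 12.36 in eIF6 shRNA cells. All depleted arrays lay above all control arrays in both fractions. The polysomal signal rose 1.59-fold (log2 change 0.67, SE 0.12, 95% interval 0.41 to 0.94, adjusted p = 0.000911). The subpolysomal signal rose 1.46-fold (0.55, SE 0.12, adjusted p = 0.00452). Within each of the 4 slides, which each held 1 array of every group, both changes were above 0. Of the 22 alternatives only scaling to the spike-in probes ended these calls, with a polysomal change of 0.19 (adjusted p = 0.812, over alternatives 0.000402 to 0.812) and a subpolysomal change of 0.30 (over alternatives 0.00112 to 0.999).

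Ddit3 had a subpolysomal signal of 11.94, 11.88, 11.68 and 11.75 in eIF6 shRNA cells, all above the scramble values of 11.30 to 11.46. It rose 1.35-fold (log2 change 0.44, SE 0.14, adjusted p = 0.0346), with 4 of 4 slides above 0. The call was lost when scramble replicate 1, 2 or 3 or eIF6 shRNA replicate 1, 2 or 3 was left out, without a filter on dim probes and with spike-in scaling (over alternatives 0.00217 to 0.999). The polysomal values overlapped, 9.50 to 9.90 in scramble and 9.60 to 10.40 in eIF6 shRNA cells. They differed by 0.28 (SE 0.14, adjusted p = 0.182). Without both polysomal arrays numbered 4 it was 0.35 (adjusted p = 0.0235, over alternatives 0.0176 to 0.826).

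Atf4 had a subpolysomal signal of 14.91, 15.08, 14.99 and 14.96 in eIF6 shRNA cells, all below the scramble values of 15.35 to 15.78. It fell 1.45-fold (log2 change -0.54, SE 0.15, adjusted p = 0.0162), with 4 of 4 slides below 0. The polysomal signal was 14.73, 14.62, 14.80 and 14.29, all between the lowest and the highest scramble array, and the change was -0.02 (SE 0.15, 95% interval -0.34 to 0.30, adjusted p = 0.962). The subpolysomal call was lost with scaling to the 75th percentile (-0.40, adjusted p = 0.127) or to the spike-in probes (-0.69) and without eIF6 shRNA replicate 1 (-0.51, adjusted p = 0.0526), over alternatives 0.00105 to 0.999.

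Atf5 had a subpolysomal signal of 16.71, 16.80, 16.83 and 16.83 in scramble and of 16.29, 16.41, 16.31 and 16.42 in eIF6 shRNA cells. The groups did not overlap, and the signal fell 1.35-fold (log2 change -0.44, SE 0.13, adjusted p = 0.026). On polysomes it had 16.33, 16.32, 16.42 and 15.85 in scramble and 16.88, 16.49, 16.69 and 16.29 in eIF6 shRNA cells. These groups overlapped only through the array numbered 4 of the eIF6 shRNA. They differed by 0.36 (SE 0.13, adjusted p = 0.0715), and without both polysomal arrays numbered 4 it was 0.33 (adjusted p = 0.0206, over alternatives 0.0206 to 0.843). The subpolysomal call was lost with scaling to the 75th percentile (-0.14, adjusted p = 0.578) or to the spike-in probes (-0.44) and without scramble replicate 1, 2 or 3 or eIF6 shRNA replicate 2 or 3, over alternatives 0.00132 to 0.999.

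Trib3 had a polysomal signal of 13.37, 13.49, 13.55 and 13.21 in scramble and of 13.21, 13.09, 13.11 and 13.04 in eIF6 shRNA cells. The lowest control array, numbered 4, reached down to the highest depleted one, both at 13.21. The polysomal signal fell 1.23-fold (log2 change -0.29, SE 0.085, adjusted p = 0.0216), with 4 of 4 slides below 0. The call was lost without scramble replicate 2 or 3 or eIF6 shRNA replicate 2 or 4 and with scaling to the 75th percentile (-0.26, adjusted p = 0.0897) or to the spike-in probes (-0.73), over alternatives 0.00428 to 0.615. The subpolysomal change was -0.12 (SE 0.085, adjusted p = 0.329).

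The other 5 genes were called in neither fraction. Ppp1r15b had polysomal values of 8.09 to 8.66 in scramble and 8.19 to 8.58 in eIF6 shRNA cells, with a change of -0.02 (SE 0.12, 95% interval -0.29 to 0.24). Its subpolysomal values did not overlap, at 7.58 to 7.82 in scramble and 7.34 to 7.48 in eIF6 shRNA cells, and the change was -0.26 (SE 0.12, adjusted p = 0.143, and 0.0356 without both polysomal arrays numbered 4, over alternatives 0.0356 to 0.999). Ppp1r15a had 12.52 to 13.17 in scramble and 12.60 to 13.14 in eIF6 shRNA cells on polysomes, which are nearly the same ranges. Its changes were 0.04 (95% interval -0.27 to 0.34) on polysomes and -0.05 (-0.35 to 0.25) in subpolysomal RNA. Sesn2 had 11.29, 11.31, 11.27 and 11.48 in scramble and 11.46, 11.53, 11.55 and 11.83 in eIF6 shRNA subpolysomal RNA, where the highest control array overlapped with the lowest depleted one. Its changes were 0.06 (-0.15 to 0.27) on polysomes and 0.25 (0.04 to 0.46, adjusted p = 0.0781) in subpolysomal RNA. Without scramble replicate 4 the latter was called higher (0.30, adjusted p = 0.0488, over alternatives 0.0488 to 1.0). Chac1 had 13.09, 13.03, 13.25 and 13.03 in scramble and 12.81, 13.12, 12.94 and 12.69 in eIF6 shRNA polysomal RNA, where 1 depleted array lay within the control range. Its changes were -0.21 (-0.40 to -0.01, adjusted p = 0.131) and 0.06 (-0.14 to 0.25). Without eIF6 shRNA replicate 2 the polysomal signal was called lower (-0.28, adjusted p = 0.0436, over alternatives 0.0436 to 0.625). Asns was the least precise, with -0.27 (-0.81 to 0.28) and -0.07 (-0.61 to 0.48). Its scramble polysomal values were 15.13, 15.23, 15.16 and 16.19, and without scramble replicate 4 the polysomal change was -0.01.

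**Figure D4:**
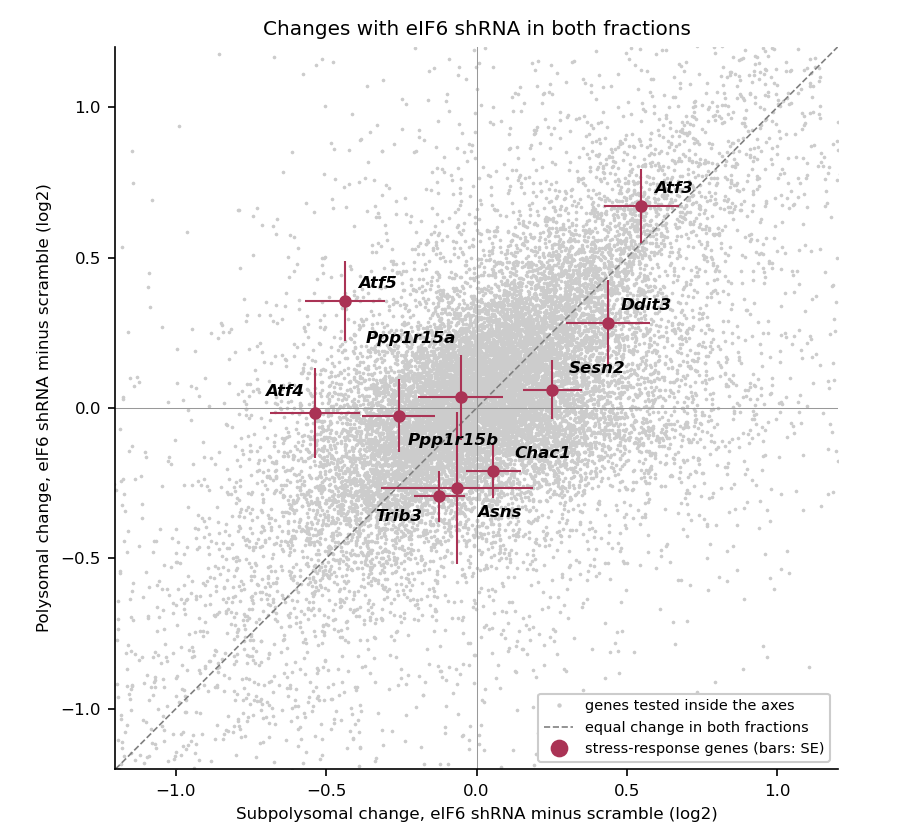
Log2 change with eIF6 shRNA in polysomal RNA (vertical axis) against that in subpolysomal RNA (horizontal axis) for the 10 genes (red, bars are SE) and all genes tested (grey; 1478 genes beyond 1.2 on either axis are not drawn). Atf3 (0.55, 0.67) lies near the line of equal change, while Atf5 (-0.44, 0.36) and Atf4 (-0.54, -0.02) lie above it.

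The third question was whether polysome loading, relative to that of other mRNAs, changed with eIF6 depletion. It is measured as the polysomal minus the subpolysomal log2 change, called the change in translational efficiency. Quantile normalization removes a loss of polysomes shared by all mRNAs. The paper reports such a loss, a lower ratio of polysomes to single ribosomes with eIF6 shRNA. A value above 0 is therefore no rise in absolute loading. None of the 10 genes was called in limma, beside 0.403% of all genes called higher and 1.1% called lower. At an unadjusted p under 0.05 limma gave 2, Atf5 and Atf4, both higher, beside 5.14% of all genes, and 0 lower, beside 7.36%. The methods' t-test, which the study names for other measurements and not for these arrays, was run on the polysomal share of the signal. At an unadjusted p under 0.05 it found 1 gene higher, beside 4.68% of all genes. It found 0 lower, beside 1298 genes lower over all genes. This was Atf5, with a polysomal share of 40.5% ± 4.59 in scramble and 54.0% ± 5.48 in eIF6 shRNA cells (SD, n = 4 each), and after adjustment it found 0, beside 0.129%. These shares and the ratios below match arrays by replicate number, on which the means of the ratios do not depend but their spread and permutation p do.

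Atf5 had a change in translational efficiency of 0.79 (SE 0.19, 95% interval 0.39 to 1.19, adjusted p = 0.0514), and 97.1% of all genes had a smaller one. The log2 ratio of arrays with the same replicate number ran from -0.98 to -0.38 in scramble and from -0.13 to 0.59 in eIF6 shRNA cells, without overlap. The two-sided exact permutation test over these 4 and 4 ratios gave p = 0.0286, the smallest it can give. Within the slides the change was 0.46 to 1.16, above 0 in 4 of 4. It passed the threshold in 7 of 22 alternatives, among them the slide as a block (adjusted p = 0.0432) and the fit without both polysomal arrays numbered 4 (adjusted p = 0.00853), over alternatives 0.00853 to 1.0. That last fit was not planned, and its arrays were picked from values of these genes, so its smaller p adds no weight. Over the alternatives the value was 0.28 to 0.91, lowest with spike-in scaling, where the median over all genes was -0.21. In these settings 94.4% to 99.9% of all genes lay below Atf5. Both fractions contributed to the value, with a polysomal change above and a subpolysomal change below 0, though the sign of the former turned with spike-in scaling (-0.16).

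Atf4 had a change of 0.52 (SE 0.21, 95% interval 0.07 to 0.97, adjusted p = 0.307), above 93.8% of all genes. Its ratios ran from -1.59 to -0.56 in scramble and from -0.67 to -0.18 in eIF6 shRNA cells, which overlap, and the exact permutation p was 0.0857. The probes gave 0.50 (SE 0.35) at base 504 and 0.55 (SE 0.16) at base 1655. The value above 0 came from the subpolysomal fraction, since the polysomal change was -0.02. Without scramble replicate 4 the value was 0.29 (adjusted p = 0.489) and with spike-in scaling 0.23, and the adjusted p over alternatives was 0.115 to 1.0. The other 8 genes had changes between -0.26 (Chac1) and 0.23 (Ppp1r15b), with exact permutation p of 0.114 to 0.771. For the other genes with uORFs the intervals were -0.57 to 0.27 for Ddit3, -0.34 to 0.52 for Ppp1r15a and -0.13 to 0.60 for Ppp1r15b. The permutation p are not adjusted over the 10 genes.

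The machinery upstream of Atf4 was read from 19 genes for the eIF2 kinases, eIF2, eIF2B and their partners. Its counts and those of the lists after it stand beside 10.7% of all genes called lower and 11.1% higher on polysomes and 12.3% and 11.8% in subpolysomal RNA. On polysomes 3 were called lower and 1 higher, with a median change of 0.06 against 0.02 over all genes, and in subpolysomal RNA 1 lower and 1 higher, with a median of 0.12. Eif2ak3, which encodes PERK, the kinase of the endoplasmic reticulum, rose in both fractions, from 9.11 ± 0.059 to 9.40 ± 0.10 on polysomes (log2 change 0.29, SE 0.088, adjusted p = 0.0271) and from 8.75 ± 0.17 to 9.01 ± 0.062 in subpolysomal RNA (0.26, adjusted p = 0.0472). Eif2s2, the beta subunit of eIF2, fell from 12.86 ± 0.087 to 12.57 ± 0.064 (-0.29, SE 0.074, adjusted p = 0.00993). Eif2b2, a subunit of the exchange factor that recharges eIF2, fell from 13.83 ± 0.17 to 13.54 ± 0.12 (-0.30, SE 0.09, adjusted p = 0.0294). The other gene called lower, Eif2ak4, which encodes the amino acid sensor GCN2, is named after its values were seen and was not well above background on all arrays. It had changes of -0.42 (SE 0.079, adjusted p = 0.00107) on polysomes and -0.45 (adjusted p = 0.000651) in subpolysomal RNA. These arrays read mRNA and not the phosphorylation of eIF2.

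Of 31 other ATF4 targets, 30 were measured, and on polysomes 3 were called lower and 2 higher, with a median of -0.02. In subpolysomal RNA 1 was called lower and 4 higher, with a median of 0.07. Gdf15, a stress hormone, rose from 11.18 ± 0.35 to 11.74 ± 0.20 on polysomes (0.56, SE 0.15, adjusted p = 0.0124) and by 0.52 in subpolysomal RNA (adjusted p = 0.0191). Mthfd2, an enzyme of mitochondrial folate metabolism, fell from 11.77 ± 0.15 to 11.19 ± 0.14 (-0.58, SE 0.10, adjusted p = 0.000531). Slc38a2, a transporter of neutral amino acids, fell from 12.66 ± 0.32 to 12.13 ± 0.28 (-0.53, SE 0.15, adjusted p = 0.0186). The remaining calls, named after their values were seen, were Vldlr, a lipoprotein receptor, which rose in both fractions (0.48 and 0.35), Eif4ebp1, which encodes the cap-binding inhibitor 4E-BP1 and fell in both (-0.33 and -0.41), and Stc2 (0.50) and Psph (0.36), which rose in subpolysomal RNA. Of the ATF4 targets called on polysomes, Gdf15, Vldlr and Atf3 lay above 0 and Mthfd2, Slc38a2, Eif4ebp1 and Trib3 below. The 3 lower and 2 higher of 30 do not exceed the shares of all genes, 10.7% lower and 11.1% higher. These calls are therefore a description of single genes and not a trait of ATF4 targets. On the gradient of scramble cells, 14 of the 30 were called higher on polysomes, beside 31.7% of all genes, and 3 lower, beside 28.4%, with a median of 0.31 against 0.04 over all genes. Gdf15 was on the light side, at -0.96 (SE 0.15, adjusted p = 5.11e-05).

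Of 9 other mRNAs known for uORFs, 7 were measured and 1 was called, Mdm2, the ubiquitin ligase of p53. It fell in both fractions, from 17.77 ± 0.095 to 16.64 ± 0.05 on polysomes (-1.13, SE 0.071, adjusted p = 2.27e-08) and by 1.07 on the log2 scale in subpolysomal RNA. Its change in translational efficiency was -0.07 (SE 0.10). The neighbouring branch of the unfolded protein response, run by ATF6 and XBP1, was read from 17 genes. On polysomes 1 was called lower and 0 higher, and 13 of the 17 were below 0, with a median of -0.17 against 0.02 over all genes. The gene called was Edem1, which helps to degrade misfolded glycoproteins, at 11.12 ± 0.23 in scramble and 10.53 ± 0.10 in eIF6 shRNA cells (-0.59, SE 0.17, adjusted p = 0.018). In subpolysomal RNA Edem1 was called lower (-0.52) and Dnajb9, a chaperone of the endoplasmic reticulum, higher (0.26). There 7 of the 17 were below 0, with a median of 0.06 against 0.02 over all genes. The branch was not tested as a set. No gene of these 4 lists was called in translational efficiency.

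**Figure D5:**
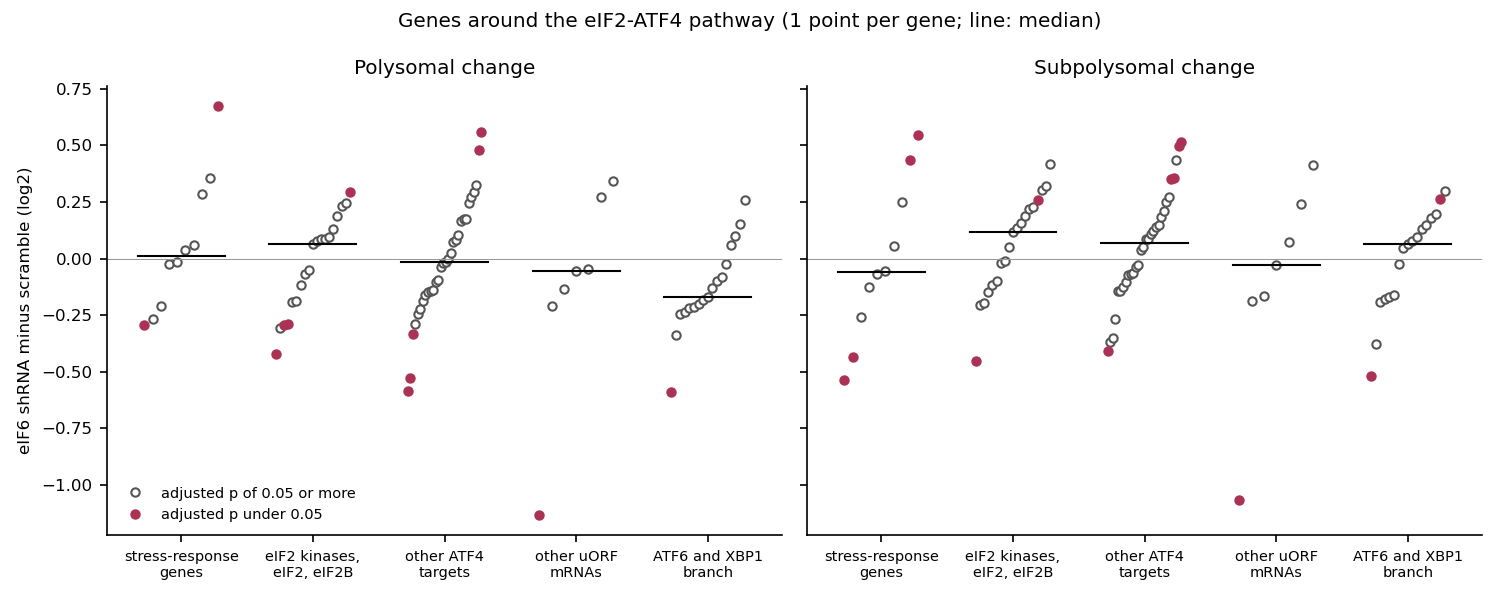
Log2 change with eIF6 shRNA in polysomal (left) and subpolysomal RNA (right) for the 10 stress-response genes and 4 related lists, each point a gene, filled at an adjusted p under 0.05, with a line at the median of the list. Each list has points on both sides of 0, and the lowest point in both fractions is Mdm2 (-1.13 and -1.07).

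Over the 16 arrays, the genes with the pattern most like Atf4 among 13342 genes well above background on all arrays were Usp31 (Pearson r = 0.98), 1500011B03Rik (r = 0.976) and Mrps24 (r = 0.97). Of the genes described here Ppp1r15a was the most like it (r = 0.891), followed by Atf5 (r = 0.717) and Ddit3 (r = 0.715). Atf3 ran the other way (r = -0.707), as did Trib3 (r = -0.584) and Asns (r = -0.561). These correlations are given as a description. The points share their fraction and shRNA in groups of 4 arrays.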

How the data were processed

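RNA of polysomal and subpolysomal sucrose gradient fractions from AML12 cells was hybridised to 16 one-colour Agilent arrays. The study's methods name them as SurePrint G3 Mouse arrays, but the array format and scan resolution given there differ from the spot count and resolution below. Per the file headers, the deposited intensity of each spot had been background-subtracted and detrended by the authors with Feature Extraction 10.7.3.1 (10.7.7.1 in the submitters' processing notes), at a scan resolution of 5 µm and with probe coordinates of build mm9. The authors also deposited log2 values for the same arrays, which correlated with the log2 intensities at 0.995 to 1.000 per array and served as an alternative. Spots of one probe were averaged (44397 spots, 39429 probes, 82 missing values, 0 saturated spots). Probes were kept if any group had 2 or more arrays on which they were well above background (25262), and were quantile normalized and averaged per gene name (19367 genes). Each array had between 20196 and 24960 probes well above background. Precision is limited by the 4 arrays per group. Differences between the 4 group means (5 comparisons) were tested with limma 3.58.1 in R 4.3.3 (data.table, version 1.17.8), with Benjamini-Hochberg adjustment over all genes and a threshold of 0.05. These are the tests behind each adjusted p. Motifs were searched with Python 3.11.15 and plots drawn with matplotlib 3.10.9. The scripts were tested on simulated data. Each of the 4 slides held 1 array of every group. The study's methods call the 4 replicates biological, and how they were cultured is not given in the sources used here.

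The 10 genes, the related lists and the tests were chosen with earlier results of these data known. Besides the 10 genes, the text names the 3 genes of each list with the largest polysomal change among those called and well above background on all 16 arrays, any list gene called in translational efficiency, the 3 genes most correlated with Atf4, and Eif6. Alternatives covered the scaling, background correction, filter, probe choice, source of values, slide, replicate number and each replicate left out. The fit without both polysomal arrays numbered 4 was added after seeing the data.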

Additional observations from a re-analysis of the deposited data

Results flagged for a closer look

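In 2 of the 40 sets of 4 arrays (10 genes in 4 groups) 1 array lay far from the other 3 by Dixon's test, where chance gives about 1 in 20. Asns had a log2 signal of 16.19 on the scramble polysomal array of replicate 4, against 15.13 to 15.23 on the other 3. Without scramble replicate 4 the Asns change in translational efficiency was 0.05 in place of -0.20. Sesn2 had 11.26 on the eIF6 shRNA polysomal array of replicate 2, against 10.91 to 10.97 on the other 3. Without that replicate its polysomal change was -0.02 in place of 0.06.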

How the results depend on the processing

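Over the alternatives, 987 of 1100 values of single genes kept their direction and side of the threshold. In scramble cells, scaling each fraction on its own gave a gradient difference of 0.11 for Ddit3, 0.20 for Atf4, 0.22 for Atf5, 1.30 for Ppp1r15a and 1.40 for Sesn2, and spike-in scaling gave 0.23, 0.41, 0.51, 1.43 and 1.51. In eIF6 shRNA cells those scalings gave 0.80 and 0.63 for Atf4, 1.63 and 1.54 for Chac1, 1.38 and 1.30 for Ppp1r15a and 1.22 and 1.14 for Sesn2. There the brightest probe gave 0.30 for Atf4, and scaling to the 75th percentile gave -0.75 for Atf5 and 0.0048 for Chac1. Their construction moved the median of all genes, to 1.38 and 1.41 with fractions scaled apart, to 1.52 and 1.31 with spike-ins and to -0.20 and -0.23 with the 75th percentile. Spike-in scaling gave polysomal changes of -0.16 for Atf5, -0.18 for Ddit3, -0.42 for Ppp1r15a and -0.39 for Sesn2, subpolysomal changes of -0.19 for Chac1 and -0.0238 for Sesn2, and efficiency changes of -0.10 for Atf3 and -0.13 for Ppp1r15a, beside medians over all genes of -0.48, -0.24 and -0.21. Scaling to the 75th percentile gave 0.0132 for Atf4 on polysomes and subpolysomal changes of 0.0814 for Asns and 0.0048 for Ppp1r15a.

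Leaving out 1 replicate of 1 shRNA turned the sign of the following values. The efficiency change ranged from -0.42 to 0.0493 for Asns, from -0.0210 to 0.20 for Atf3 and from -0.0808 to 0.22 for Ppp1r15a. The polysomal change ranged from -0.16 to 0.0908 for Atf4, from -0.0893 to 0.15 for Ppp1r15a, from -0.14 to 0.0521 for Ppp1r15b and from -0.0203 to 0.0974 for Sesn2.

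Of the 10 genes, 0 were called higher in efficiency and 1, Atf5, was with fractions scaled apart, normexp correction, the slide as a block, both stricter filters, the methods' t-test (named for other measurements) unadjusted, or without both polysomal arrays numbered 4. Without 1 replicate it was 0 to 1. On polysomes 3 were called higher without both arrays numbered 4 and 0 with spike-ins (1 to 3 without 1 replicate), and 0 lower with the 75th percentile or spike-ins (0 to 1). In subpolysomal RNA 1 was called higher without a filter and 0 with spike-ins (1 to 3), and 0 lower with the 75th percentile or spike-ins (1 to 2). On the gradient of scramble cells 7 were called higher with fractions scaled apart or spike-ins, and 0 lower with either or 3 with the 75th percentile. In eIF6 shRNA cells 9 and 7 were called higher and 0 lower (2 to 4 without 1 replicate). The cause of these moves beyond the scaling was not tested.

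Over all genes, 214 were called lower and 78 higher in efficiency, against 340 and 130 with fractions scaled apart, 390 and 177 with normexp, 26 and 2 with spike-ins, 75 and 25 by the methods' t-test adjusted, 1298 and 905 unadjusted, 426 lower with the 75th percentile and 142 lower without a filter. Without 1 replicate it was 50% to 92.1% of the 214 lower, and 35 to 112 higher. Spike-ins turned 2072 lower and 2148 higher on polysomes into 1044 and 98, and 2390 and 2294 in subpolysomal RNA into 346 and 39. On the gradient 5496 and 6134 in scramble cells became 899 and 15787 with fractions scaled apart and 391 and 13323 with spike-ins, and 5553 and 6223 in eIF6 shRNA cells became 840 and 15405 and 478 and 11192.

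Arrays sharing a replicate number did not all deviate together, with r of -0.157 to 0.030 (median -0.023) between the fractions of 1 shRNA and of -0.103 to 0.412 (median 0.023) between the shRNAs in 1 fraction. Arrays on 1 slide had a median r of 0.129, against -0.051 for pairs that share no slide, number or group. The reported fits have no block, and ratios by replicate number are a description. With the replicate number as a replicate block, fixed or random per culture, 0 of 50 calls changed in each fit, with an adjusted p for Atf5 efficiency of 0.0605 under the fixed block. The 10 genes were above background on all 16 arrays, so their signal did not limit detection.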
